A study of Rattus norvegicus with 12 samples.

Results

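Gfap, Vim, Aqp4, S100b, Slc1a2 and Slc1a3 are 6 genes of astrocytes and of radial glia, the progenitor cells from which many astrocytes arise. They were picked by name and Ensembl identifier, by a rule that uses no measured value although earlier results of these data were known when the list was drawn up, out of the 29516 genes measured in each of 12 RNA libraries. All 6 passed the filter on low values that left 16310 genes for testing. The tissue was the preoptic area of newborn rats (organism label Rattus norvegicus), a region at the front of the hypothalamus that differs between the sexes. Females and males were given zebularine or vehicle on postnatal days 0 and 1, and the tissue was collected on postnatal day 2. Zebularine is a cytidine analogue that inhibits DNA methyltransferases, the enzymes that place methyl groups on cytosines, mostly where a C is followed by a G. As vehicle the labels give saline holding 0.1% DNMSO, so spelled. Each of the 4 groups held 3 libraries: females given vehicle, females given zebularine, and the same for males. The labels give no strain and no dose, and do not say whether a library held 1 animal or several or whether replicates were separate animals. The p-values thus cover only the variation among these libraries, part of which may be technical.

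Radial glia span the wall of the embryonic brain, divide to give neurons, and later turn into astrocytes around birth. Vimentin is typical of the radial glial and immature stage, and glial fibrillary acidic protein joins it in the filaments as astrocytes mature. The glutamate transporter GLAST (Slc1a3) is present from the radial glial stage on, whereas GLT-1 (Slc1a2) becomes the main transporter of the mature forebrain. In several brain regions, loss of methylation at CG pairs of the Gfap promoter goes with the onset of astrocyte formation, and in the newborn preoptic area the shape of astrocytes is known to differ between the sexes.

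Levels are given in RPKM, read numbers divided by the length of the gene model and scaled to the reads that the library had in genes, so that genes of unequal length can be set side by side. The gene models, whose lengths were recovered from the values, ran from 1484 bases for S100b and 1830 for Vim to 5343 for Gfap, 7570 for Slc1a3, 11136 for Slc1a2 and 17941 for Aqp4. Depth ran from 15851731 to 30475130 reads assigned to genes per library. Each level rested on at least 828 reads (Gfap in zebularine male replicate 2) and at most 18147 reads (Slc1a3 in vehicle female replicate 2). Counting error alone therefore gave a coefficient of variation (CV) of at most 3.48%. Zebularine female replicate 3 was unlike the rest: its score on the leading principal component of the tested genes (23.4% of the variance) was 50.4, and the other scores lay between -11.6 and 9.49. It held the highest level of 4 of the 6 genes, and differences that involve zebularine females are also given without it for those 4. The files hold identifiers without symbols, and 0 of the 29516 identifiers matched the gene name table used here. Other astrocyte genes and markers of neurons, microglia, vessels, meninges and choroid plexus are therefore not analysed here. The presence of these 6 glial genes is not particular to the preoptic area, so the tissue label was not checked.

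All 6 genes were well expressed in each of the 12 libraries, in 2 tiers. Slc1a3, Vim and S100b formed the upper tier, with means over the libraries of 84.9 ± 6.95, 87.1 ± 35.1 and 76.6 ± 8.08 RPKM (SD, n = 12), above 94.98%, 95.2% and 94.2% of the tested genes. Aqp4, Gfap and Slc1a2 formed the lower tier, at 18.1 ± 2.47, 14.7 ± 4.61 and 12.02 ± 0.720 RPKM (SD, n = 12), above 70.8%, 65.6% and 60.3% of the tested genes. The tiers did not overlap in any library: the lowest value of the upper tier was 50.7 RPKM and the highest of the lower tier 24.8 RPKM. They depend on the recovered gene model lengths, since a model longer than the transcript made lowers its RPKM. Aqp4, with the longest model, had at least 5687 reads per library, and S100b, with the shortest, at most 3645. Within the upper tier the order was not fixed, since Vim exceeded Slc1a3 in 6 of 12 libraries and S100b in 6 of 12, and Slc1a3 exceeded S100b in 10 of 12. Within the lower tier Aqp4 exceeded Slc1a2 in 12 of 12 libraries and Gfap in 10 of 12. Gfap and Slc1a2 could not be ordered, Gfap being higher in 7 of 12. In bulk tissue, fewer cells of a type and less RNA per cell cannot be told apart, here or in the results that follow.

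**Figure D1:**
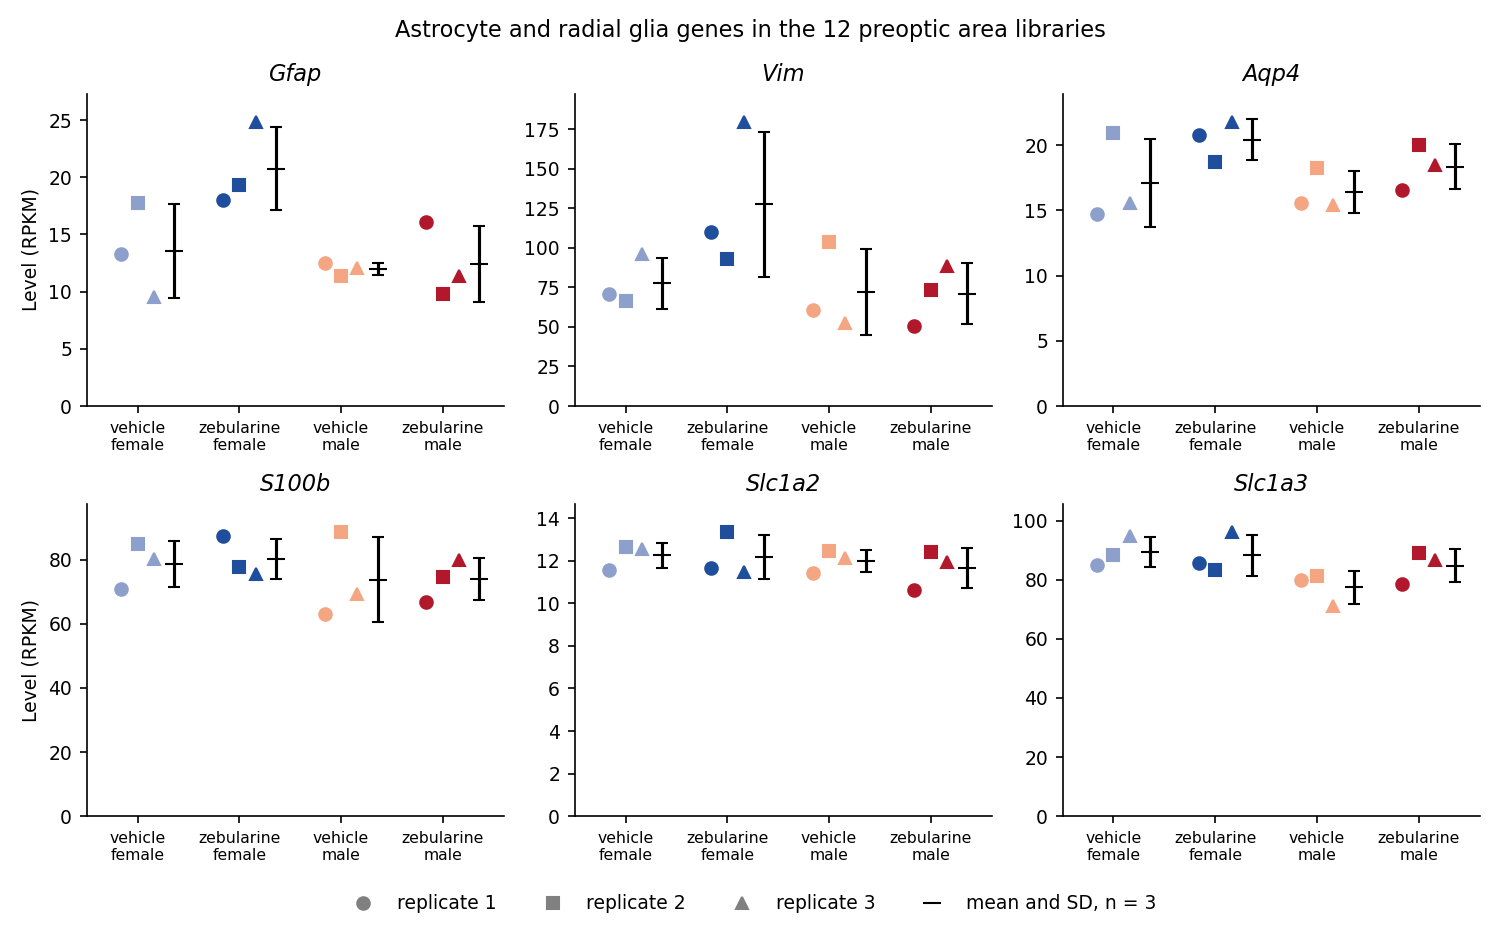
Level of each gene in RPKM (vertical axes from 0) in each library, grouped by sex and treatment; symbols mark replicates, and the bar is the mean and SD of 3 libraries. Zebularine female libraries hold the highest Gfap, Vim, Aqp4, Slc1a2 and Slc1a3 values, while S100b, Slc1a2 and Slc1a3 stay within 1.40-fold, 1.26-fold and 1.35-fold over all libraries.

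The first pair of genes encodes the glial filament proteins. Because zebularine acts on the methylation of CG pairs, the 250 bases before each start site are shown, with every CG in capitals. Methylation itself was not measured. The stretches are from RefSeq, assembly GRCr8, at chr10:88361662-88361911 (minus strand) for Gfap and chr17:81577011-81577260 (plus strand) for Vim.
Gfap: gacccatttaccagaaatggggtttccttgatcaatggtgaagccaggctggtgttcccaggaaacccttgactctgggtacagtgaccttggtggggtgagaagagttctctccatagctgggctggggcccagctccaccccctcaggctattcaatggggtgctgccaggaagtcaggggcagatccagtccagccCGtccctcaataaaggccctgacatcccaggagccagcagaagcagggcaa
Vim: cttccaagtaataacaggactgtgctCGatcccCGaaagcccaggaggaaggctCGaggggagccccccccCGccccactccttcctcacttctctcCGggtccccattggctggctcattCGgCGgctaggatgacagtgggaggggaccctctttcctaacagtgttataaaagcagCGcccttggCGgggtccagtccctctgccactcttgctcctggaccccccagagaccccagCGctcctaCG
The Gfap stretch holds 1 CG and the Vim stretch 11. In windows that also include the first 50 bases of the gene, 300 bases in all, Gfap had 6 CG pairs and Vim 14, where the median of 33469 such windows was 7. At least 6 CG pairs were found in 56.3% of all windows and at least 14 in 33.5%.

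Gfap (ENSRNOG00000002919), the filament protein of maturing astrocytes, showed its highest levels in zebularine females. The vehicle female libraries stood at 13.3, 17.7 and 9.55 RPKM and the zebularine female libraries at 18.0, 19.4 and 24.8 RPKM. The 2 female groups did not overlap, although the highest vehicle library and the lowest treated library lay close together. Vehicle male libraries stood at 12.5, 11.4 and 12.03 RPKM and zebularine male libraries at 16.1, 9.78 and 11.4 RPKM. Treated males lay on both sides of the vehicle males, with 1 library above them and the other two below. The group means were 13.5 ± 4.09 and 20.7 ± 3.63 RPKM in vehicle and zebularine females, and 11.96 ± 0.536 and 12.4 ± 3.29 RPKM in vehicle and zebularine males (SD, n = 3).

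By limma on log2(RPKM + 0.5) over all tested genes, the zebularine minus vehicle difference of Gfap was 0.63 ± 0.22 (SE) in females, a 1.54-fold level with a 95% interval from 1.11-fold to 2.15-fold. It did not pass the threshold of 0.05 (unadjusted p = 0.0147, limma adjusted p = 0.687). Of the 6 genes, Gfap alone had female groups without overlap, treated higher, as had 5.87% of all tested genes. With 3 libraries against 3, an exact permutation test cannot go below 0.1, the value it gave for Gfap in females (two-sided). In males the log2 difference was 0.02 ± 0.22 (SE, limma adjusted p = 0.990), with a 95% interval from 0.729-fold to 1.41-fold. The test of whether the sexes differed in response gave a male minus female difference of -0.60 ± 0.31 (SE, limma adjusted p = 0.976), which was -0.47 without zebularine female replicate 3 and -0.39 without vehicle female replicate 3. Without zebularine female replicate 3 the female log2 difference was 0.49 (limma adjusted p = 1.00), and without vehicle female replicate 3, the lowest of the females, it was 0.41.

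The Gfap levels of treated females also lay above both male groups. Zebularine males were below zebularine females without overlap, the difference on the log2 scale being -0.73 ± 0.22 (SE, unadjusted p = 0.00607, limma adjusted p = 0.412). Zebularine females lay above vehicle males without overlap, by 0.76 ± 0.22 (SE, unadjusted p = 0.00510, limma adjusted p = 0.354), the smallest p of any of the 6 genes in the 7 comparisons made. Neither passed over all genes. With zebularine female replicate 3 omitted the differences were -0.60 and 0.62 (limma adjusted p = 0.455 and 0.980). These comparisons share the 3 zebularine female libraries. Under vehicle the male minus female difference was -0.13 ± 0.22 (SE, limma adjusted p = 1.00).

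Vim (ENSRNOG00000018087), the filament protein of radial glia and immature astrocytes, which vessel, ependymal and meningeal cells are also known to make, was the most variable of the 6 genes. Vehicle females stood at 70.5, 66.3 and 96.1 RPKM, and zebularine females at 110, 92.7 and 180 RPKM. The female groups overlapped, since the lowest treated library lay under the highest vehicle library. Vehicle males stood at 60.4, 103 and 52.8 RPKM, and zebularine males at 50.7, 73.4 and 88.8 RPKM. In each sex 1 vehicle library stood well above the other two, replicate 3 in females and replicate 2 in males. Zebularine female replicate 3 had 1.77 times the mean level of replicates 1 and 2 of its group for Vim, 1.33 times for Gfap, and between 0.917 and 1.14 times for the other 4 genes. That ratio of Vim exceeded the ratio of 95.8% of tested genes.

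For Vim the zebularine minus vehicle log2 difference in females was 0.67 ± 0.30 (SE, unadjusted p = 0.0490, limma adjusted p = 0.919), with a 95% interval from 1.00-fold to 2.53-fold. Without zebularine female replicate 3 it was 0.40 (limma adjusted p = 1.00), so that 1 library moved the value by more than 1.5 times. Without zebularine female replicate 2 it was 0.87. In males it was 0.00 ± 0.30 (SE, limma adjusted p = 0.999), with a 95% interval from 0.630-fold to 1.59-fold, and 0.29 without vehicle male replicate 2 (limma adjusted p = 0.779). The difference in response between the sexes was -0.67 ± 0.43 (SE, limma adjusted p = 0.976). It was -0.39 without zebularine female replicate 3, -0.38 without vehicle male replicate 2 and -0.20 with libraries weighted by their quality. Without zebularine female replicate 2 it was -0.87. Treated males lay below treated females without overlap, the log2 difference being -0.82 ± 0.30 (SE, limma adjusted p = 0.428), and -0.54 without zebularine female replicate 3. Zebularine females were above vehicle males by 0.82 ± 0.30 (SE, limma adjusted p = 0.589), with overlap, and by 0.54 without that library. Under vehicle the male minus female difference was -0.15 ± 0.30 (SE, limma adjusted p = 1.00).

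The ratio of Gfap to Vim within a library, which does not depend on how the library was scaled, ranged from 0.0994 to 0.317. Its group means were 0.185 ± 0.0841 in vehicle females, 0.170 ± 0.0357 in zebularine females, 0.181 ± 0.0626 in vehicle males and 0.193 ± 0.108 in zebularine males (SD, n = 3). The 4 groups overlapped, and their means differed by less than the spread between replicates in any of them. The highest and lowest ratios of all libraries were those of zebularine male replicate 1 and vehicle female replicate 3.

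Aqp4 (ENSRNOG00000016043) encodes the water channel of astrocyte endfeet, the processes that line vessels and the brain surface. Its levels were 14.7, 20.9 and 15.6 RPKM in vehicle females and 20.8, 18.7 and 21.8 RPKM in zebularine females. They were 15.6, 18.2 and 15.4 RPKM in vehicle males and 16.6, 20.0 and 18.5 RPKM in zebularine males. The treated mean was the higher in each sex, with overlap in both. Vehicle female replicate 2 was the only vehicle library above 20 RPKM.

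Over both sexes the zebularine minus vehicle log2 difference of Aqp4 was 0.21 ± 0.09 (SE), or 1.16-fold with a 95% interval from 1.01-fold to 1.33-fold. It did not pass (unadjusted p = 0.0372, limma adjusted p = 0.631). An exact permutation test with labels permuted within sex, over 400 arrangements, gave p = 0.065 (two-sided, 1 of 6 such tests, the smallest possible p being 0.005). The sex-specific differences were 0.27 ± 0.13 in females and 0.16 ± 0.13 in males (SE, limma adjusted p = 0.941 and 0.754). Without zebularine female replicate 3 the value was 0.19 over both sexes and 0.22 in females. The female value was 0.17 with vehicle female replicate 1 omitted and 0.42 with replicate 2 omitted. Leaving out vehicle female replicate 2 gave the lowest adjusted p of Aqp4 over both sexes, 0.212, with a log2 difference of 0.29. Zebularine females exceeded vehicle males without overlap, by 0.31 ± 0.13 (SE, limma adjusted p = 0.667), on a gap between 18.7 and 18.2 RPKM, and by 0.26 without zebularine female replicate 3.

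S100b (ENSRNOG00000001295) encodes a calcium-binding protein of astrocytes that some oligodendrocyte progenitors and ependymal cells also make. Vehicle females stood at 70.9, 84.8 and 80.1 RPKM and zebularine females at 87.4, 77.5 and 75.6 RPKM. Vehicle males stood at 63.2, 88.5 and 69.2 RPKM and zebularine males at 66.9, 74.6 and 79.9 RPKM. The groups overlapped in every comparison, and the lowest and the highest library both belonged to the vehicle males. The zebularine minus vehicle log2 difference over both sexes was 0.02 ± 0.08 (SE, limma adjusted p = 0.963). Its 95% interval ran from 0.892-fold to 1.16-fold.

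The second pair of genes encodes the astrocytic glutamate transporters, which clear the transmitter from the synaptic cleft. Their upstream stretches are shown for the same reason as those of the filament genes, from RefSeq, GRCr8, at chr3:109459859-109460108 (plus strand) for Slc1a2 and chr2:59557809-59558058 (minus strand) for Slc1a3, again with every CG in capitals.
Slc1a2: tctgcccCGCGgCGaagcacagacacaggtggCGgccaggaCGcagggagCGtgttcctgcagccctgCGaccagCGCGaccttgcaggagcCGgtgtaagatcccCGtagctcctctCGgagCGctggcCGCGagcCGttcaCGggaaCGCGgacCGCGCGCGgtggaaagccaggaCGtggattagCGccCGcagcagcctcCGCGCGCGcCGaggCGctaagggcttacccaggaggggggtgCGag
Slc1a3: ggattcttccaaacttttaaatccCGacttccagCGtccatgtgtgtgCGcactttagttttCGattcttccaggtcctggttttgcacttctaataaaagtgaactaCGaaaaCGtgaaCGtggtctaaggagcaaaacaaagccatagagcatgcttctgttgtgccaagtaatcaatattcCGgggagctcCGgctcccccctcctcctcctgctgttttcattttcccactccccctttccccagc
The Slc1a2 stretch holds 33 CG pairs and the Slc1a3 stretch 9. With the first 50 bases of the gene included, Slc1a2 had 39, a number reached by 3.76% of all windows, and Slc1a3 had 12, reached by 37.1%. A second annotated start of Slc1a2, further into the gene, had 2 in its window. Windows of S100b and of 2 starts of Aqp4 held 5, 5 and 4 CG pairs. The motif TTCNNNGAA, to which STAT proteins are known to bind, reads the same on both strands. It was found in 0 of the 10 windows of the 6 genes and in 8.87% of all windows. Bases further from the start were not searched, and the 3 windows of Slc1a3 largely cover the same bases. The 0 therefore does not show that these genes lack such a site.

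Slc1a2 (ENSRNOG00000005479), the transporter of the mature forebrain, had the least spread of the 6. Its levels were 11.6, 12.6 and 12.5 RPKM in vehicle females, 11.7, 13.3 and 11.5 RPKM in zebularine females, 11.4, 12.4 and 12.1 RPKM in vehicle males, and 10.6, 12.4 and 11.9 RPKM in zebularine males. The groups overlapped in every comparison. Over both sexes the zebularine minus vehicle log2 difference was -0.03 ± 0.06 (SE, limma adjusted p = 0.927), with a 95% interval from 0.902-fold to 1.07-fold. In females it was -0.01 ± 0.08 and in males -0.04 ± 0.08 (SE, limma adjusted p = 1.00 and 0.923).

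Slc1a3 (ENSRNOG00000016163), the transporter that radial glia already carry, stood at 84.9, 88.4 and 94.8 RPKM in vehicle females and 85.5, 83.2 and 96.1 RPKM in zebularine females. It stood at 79.9, 81.3 and 71.0 RPKM in vehicle males and 78.4, 89.1 and 86.5 RPKM in zebularine males. Vehicle males lay below vehicle females without overlap, as 3.79% of tested genes did, and the other 5 genes overlapped in this comparison. That male minus female difference was -0.21 ± 0.08 (SE, unadjusted p = 0.0209, limma adjusted p = 1.00), or 0.866-fold with a 95% interval from 0.770-fold to 0.974-fold, and it did not pass. It ran from -0.24 to -0.15 over 23 alternatives and was -0.16 without vehicle female replicate 3. With that library or vehicle male replicate 3 omitted, its unadjusted limma p was no longer under 0.05. Under zebularine the sexes overlapped, at -0.06 ± 0.08 (SE, limma adjusted p = 0.807). The zebularine effects were -0.02 ± 0.08 in females and 0.13 ± 0.08 in males (SE, limma adjusted p = 1.00 and 0.678), and the difference between them was 0.15 ± 0.11 (SE, limma adjusted p = 0.976). Without zebularine female replicate 3 the female effect was -0.08, the difference between the effects 0.21 and the sex difference under zebularine 0.00. Zebularine females were above vehicle males without overlap, by 0.19 ± 0.08 (SE, limma adjusted p = 0.667), and by 0.13 without that library.

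The Slc1a2 to Slc1a3 ratio within a library ranged from 0.119 to 0.171, a 1.43-fold range, so that per length the GLAST transcript was the more abundant in 12 of 12 libraries. Group means were 0.137 ± 0.00544 in vehicle females, 0.139 ± 0.0206 in zebularine females, 0.156 ± 0.0140 in vehicle males and 0.138 ± 0.00201 in zebularine males (SD, n = 3). The vehicle male libraries lay above all 3 zebularine male libraries for this ratio, on a gap between 0.143 and 0.139. The other pairs of groups overlapped, and group differences of this ratio were not tested. Levels per length rest on the recovered gene models, and a model longer than the transcript made in this tissue lowers its RPKM; which transcripts were made was not measured.

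Replicate libraries differed by more than counting error for each gene in each group. The CV between the 3 replicates of a group ran from 20.8% to 37.8% for Vim, from 4.48% to 30.3% for Gfap, from 7.79% to 19.8% for Aqp4, from 7.89% to 18.0% for S100b, from 4.31% to 8.42% for Slc1a2 and from 5.61% to 7.78% for Slc1a3. Among the 7288 tested genes with a mean of at least 10 RPKM, the residual SD within groups had a median of 0.0999 on the log2 scale. That of Vim was 0.43 and that of Gfap 0.30, above 98.7% and 96.5% of those genes. Slc1a2 and Slc1a3, at 0.092 and 0.099, lay above 42.5% and 48.9% of them, and Aqp4 and S100b, at 0.17 and 0.16, above 85.6% and 83.9%. The ratio of the CV between replicates to that of counting error ran from 12.2 to 25.1 for Vim, 1.85 to 12.2 for Gfap, 7.02 to 16.9 for Aqp4, 4.05 to 9.56 for S100b, 2.56 to 4.60 for Slc1a2 and 7.22 to 9.47 for Slc1a3.

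**Figure D2:**
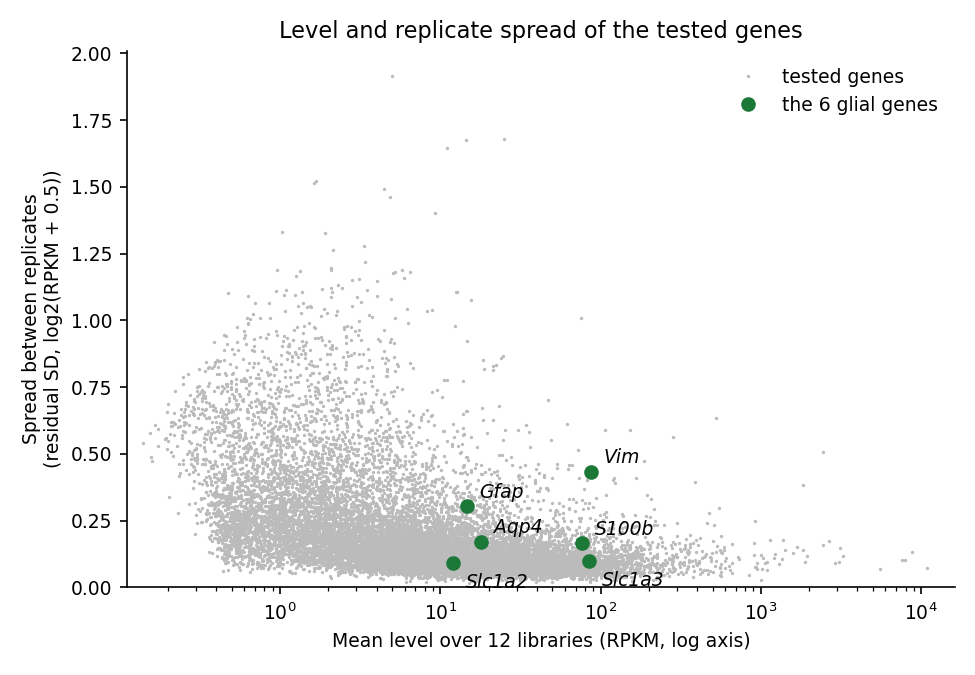
Residual SD within groups on the log2(RPKM + 0.5) scale against the mean level over 12 libraries (RPKM, log axis) for the 16310 tested genes (grey) and the 6 glial genes (green). Vim, at 0.43, and Gfap, at 0.30, lie above most genes of like level, and Slc1a2 and Slc1a3 lie among them.

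Across the 7 comparisons, 0 of the 42 tests of these genes passed an adjusted p of 0.05 by limma, and 10 had an unadjusted p under 0.05. Over both sexes 0 of 6 passed for zebularine against vehicle, where 0.405% of the tested genes did. The corresponding shares of all tested genes were 0.0429% within females, 0% within males, 0% for the difference in response, 0.0123% between the sexes under vehicle, 0.0307% between the sexes under zebularine and 0.11% for zebularine females against vehicle males. With limma-voom on reads recovered from the values, 0 of the 42 passed as well. At an unadjusted p under 0.05 the numbers were 1 of 6 over both sexes (Aqp4), 2 of 6 in females (Gfap and Vim), 0 of 6 in males, 0 of 6 for the difference in response, 1 of 6 between the sexes under vehicle (Slc1a3), 2 of 6 between the sexes under zebularine (Gfap and Vim) and 4 of 6 for zebularine females against vehicle males (Gfap, Vim, Aqp4 and Slc1a3). The shares of all tested genes under that threshold were 7.56%, 5.4%, 7.58%, 4.05%, 2.08%, 11.1% and 6.72%, in the same order. These counts changed when single libraries were omitted. With zebularine female replicate 3 omitted they were 0 of 6 over both sexes, in females, in males and for the difference in response. They were then 1 under vehicle (Slc1a3), 1 under zebularine (Gfap) and 1 for zebularine females against vehicle males (Gfap). The shares of all tested genes without that library were 5.31%, 3.76%, 8.99%, 5.52%, 2.59%, 10.3% and 4.03%, in the same order. With any 1 of the 12 libraries omitted the counts ran from 0 to 2, 0 to 3, 0 to 1 and 0 to 1. Between the sexes they ran from 0 to 2 under vehicle and 1 to 2 under zebularine. For zebularine females against vehicle males they ran from 1 to 5. The last was 1 also without vehicle male replicate 3 and 2 without vehicle male replicate 1. The shares of all genes ran from 5.31% to 10.6% over both sexes, 3.65% to 7.44% in females and 3.76% to 10.9% in males. They ran from 2.72% to 5.52% for the difference in response and 4.03% to 8.72% for zebularine females against vehicle males. Between the sexes they ran from 1.78% to 2.89% under vehicle and 6.06% to 12.6% under zebularine. Other settings also moved which genes were under 0.05. With libraries weighted by their quality, Gfap and Slc1a3 were under it for the difference in response and Slc1a3 in males. Vim then was not, in females or between the sexes under zebularine. With limma-voom, Gfap joined Aqp4 over both sexes, and Aqp4 joined Gfap and Vim in females. Shares of all genes under these settings are not given.

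Libraries without overlap were counted in the same way. Between the sexes under zebularine, Gfap and Vim were lower in males without overlap, 2 of 6, as were 8.47% of all tested genes. In zebularine females against vehicle males, Gfap, Aqp4 and Slc1a3 were higher without overlap, 3 of 6, against 7.65% of all tested genes. No gene of the 6 was separated in males, where 8.36% of all genes were higher and 5.97% lower. The median zebularine difference of the 6 genes was 0.15 in females and 0.02 in males, against 0.01 and 0.00 for all tested genes. Between the sexes the male mean log2 level was the lower for 6 of 6 genes under vehicle and for 6 of 6 under zebularine. The medians were -0.12 and -0.14, against -0.01 and -0.02 for all tested genes, whose share with a lower male mean was not counted. The sign turned in 1 or 2 of 23 alternative settings, which include omitting single libraries, for Gfap, Vim, Aqp4 and Slc1a2 under vehicle. Under zebularine it did so for Slc1a2 and Slc1a3. Several of the 23, such as omitting a library outside the compared groups, leave the log2 difference as it was and cannot turn its sign. Genes of shared cells are not independent, and none of these differences passed singly.

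**Figure D3:**
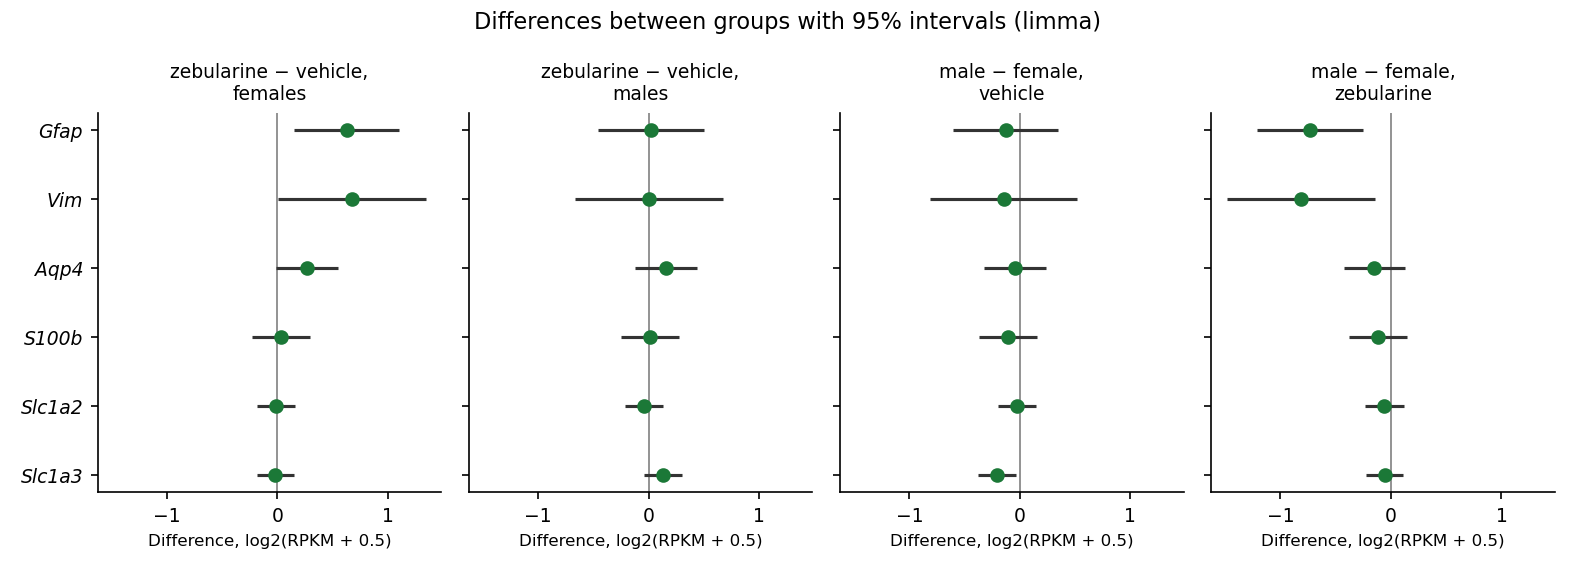
Differences between groups for each gene, on the log2(RPKM + 0.5) scale, with 95% intervals from limma (12 libraries, 3 per group); the vertical line marks no difference. Intervals of Gfap and Vim are the widest, and those of Slc1a2 and Slc1a3 lie within 0.38 of 0 in all 4 panels.

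Whether the 6 genes varied together was examined over the 12 libraries, for 15 pairs. The pairs share libraries and group structure. The highest correlation was between Vim and Slc1a3, with a Pearson r of 0.70 (permutation p = 0.0130, adjusted over 15 pairs 0.190) and a Spearman rho of 0.62 (permutation p = 0.0384, adjusted 0.199). Without the 2 libraries farthest from the median of Vim r was 0.52, without the 2 farthest from that of Slc1a3 it was 0.41, without zebularine female replicate 3 it was 0.58, and for deviations from the group means it was 0.86. No pair passed after adjustment. For Vim and S100b r was 0.56 and rho 0.70 (permutation p = 0.0558 and 0.0136, adjusted 0.190 and 0.199), with r at 0.76 without the 2 libraries farthest from the median of Vim and 0.49 without the 2 farthest from that of S100b. Without zebularine female replicate 3 this pair had the highest r of the 15, at 0.80.

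No relation between Gfap and Vim passed its test. Their r was 0.41 and rho 0.17 (permutation p = 0.190 and 0.604, adjusted 0.317 and 0.696) over 12 libraries, -0.03 without zebularine female replicate 3, -0.17 and 0.12 without the 2 libraries farthest from the median of Gfap and of Vim, and -0.29 for deviations from the group means. The sign of r thus changed with the omission of 1 library. The transporters had an r of 0.18 and rho of 0.25 (permutation p = 0.575 and 0.429, adjusted 0.659 and 0.667), which was 0.08 without the 2 libraries farthest from the median of Slc1a2, 0.52 without the 2 farthest from that of Slc1a3 and 0.34 without zebularine female replicate 3.

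**Figure D4:**
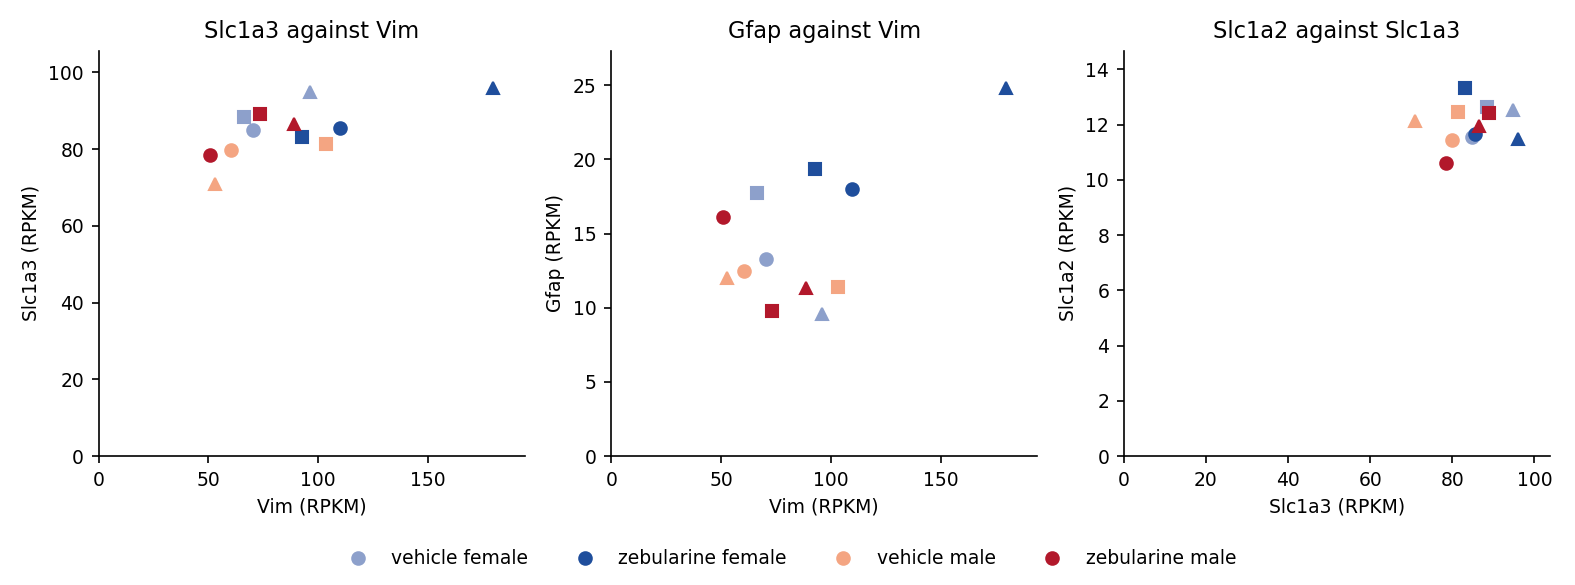
Levels in RPKM of 3 pairs of genes, 1 point per library, coloured by group, with circles, squares and triangles for replicates 1, 2 and 3 and axes from 0. Zebularine female replicate 3 lies at 180 RPKM of Vim, apart from the other libraries, and the Slc1a2 values keep between 10.6 and 13.3 RPKM.

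Likeness to all other genes was ranked by Pearson r over the 12 libraries, among 14370 genes with a mean of at least 1 RPKM, as a description. Zebularine female replicate 3, which stood apart from the rest, was included, and ranks without it are not given. For Slc1a3, Vim ranked at place 186 and Slc1a2 at place 5134. Gfap had Aqp4 at place 1072 and Slc1a2 at place 9457. Aqp4 had S100b at place 765 and Vim at place 819. An r over 0.8 was reached with 331 genes by Vim, 112 by S100b, 51 by Aqp4, 30 by Gfap, 28 by Slc1a3 and 24 by Slc1a2. The gene most like Gfap was ENSRNOG00000012960 (r = 0.89, rho = 0.86, n = 12), at 1.94 to 4.84 RPKM, and the one most like Slc1a3 was ENSRNOG00000003549 (r = 0.88, rho = 0.80, n = 12), at 31.6 to 40.3 RPKM.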

How the data were processed

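Read counter, genome build, annotation and strand setting: not given in the sources used here. Reads of overlapping or antisense genes may therefore be shared. Per the labels' protocols, RNA was extracted with Trizol and libraries followed a standard Illumina procedure. The submitters' processing notes name TopHat, which is an aligner, with no version. The authors deposited RPKM for 29516 Ensembl genes in each of 12 files, 1 per library. Groups and replicate numbers come from the titles.

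Whole reads and gene model lengths were recovered from the RPKM steps for 100% of the 23427 genes above 0, within a tolerance of 0.002 reads. The filter required 0.5 RPKM or more in 3 or more libraries (16310 genes). log2(RPKM + 0.5) was fitted with limma 3.58.1 (R 4.3.3, eBayes with trend) as 4 group means, two-sided. P-values were adjusted by Benjamini and Hochberg's method over the 16310 genes and called under 0.05. The fit was run on simulated reads with changes alike in both sexes and the same replicate spread for all genes. That run covered only the comparison over both sexes. The added 0.5 makes differences of weakly expressed genes appear smaller. Permutation p-values of correlations used 100000 resamples (Python 3.11.15, numpy 2.4.6, pandas 2.3.3, scipy 1.17.1). All 6 genes were named in every comparison, with the gene most like Gfap and the one most like Slc1a3. The rule for the 6 members uses no measured value, but members, tests and motifs were chosen with earlier results of these data known. Gene symbols are those given with the list of 6 identifiers; promoter sequences were matched by symbol for 6 of 6 genes.

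Alternatives were pseudocounts of 0.1 and 1, median-ratio scaling, quantile normalization, no filter, a filter of 1 RPKM, only the compared groups, array weights, robust eBayes, limma-voom on recovered reads, a block on the replicate number, and leaving out each library.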

Additional observations from a re-analysis of the deposited data

How the results depend on the processing

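None of the 954 values of the 6 genes under the alternatives run, over the 7 comparisons, passed an adjusted p of 0.05, and the smallest was 0.212, so the count of 0 of 6 held in each comparison. The counts over all genes moved more: 66 for zebularine over both sexes became 9 to 113, 7 in females became 0 to 57, 0 in males became 0 to 15, 0 for the difference in response became 0 to 2, 2 between the sexes under vehicle became 1 to 5, 5 under zebularine became 1 to 18, and 18 for zebularine females against vehicle males became 3 to 107. The female Gfap log2 difference ran from 0.41 to 0.84 and that of Vim from 0.40 to 0.87, positive under each alternative. Those of S100b, Slc1a2 and Slc1a3 in females, all near 0, took the opposite sign in 2, 4 and 3 of 23 alternatives. Several alternatives, among them omitting a male library, leave the female differences as they were. These counts therefore do not measure how stable the signs are. With a block on the replicate number, 0 of 6 genes passed in each comparison and the 66 genes over both sexes became 9. Of 18 pairs of libraries with the same number, 5 had deviations from their group means correlated above 0.1 (from -0.30 to 0.30). With 3 libraries per group these values cannot tell whether libraries of the same number were handled together. With 3 libraries per group, the interval of Vim ran from 1.00-fold to 2.53-fold in females and from 0.326-fold to 1.21-fold for the difference in response.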
